A study of Homo sapiens with 9 samples.

Results

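The genes described here make cholesterol and fatty acids or regulate that synthesis. They are 32 symbols chosen by name out of 27635 in the expression table: 7 genes of the mevalonate steps, 11 of the squalene and sterol steps, 4 of SREBP regulation and sterol transport, 3 of fatty acid synthesis, 5 desaturases and elongases, and 2 that activate fatty acids. All 32 were present in the table and all 32 passed the filter on low values. They were followed in the ER+ human breast cancer line T47D, in 9 libraries of bulk RNA sequencing. The 3 groups were monoculture (MC, n = 3 libraries), contact culture with HS5 (a stromal line from human marrow, used as MSCs; CC, n = 3), and culture in HS5 conditioned medium (CMed, n = 3). Contact cultures were seeded at 10% cancer cells to 90% MSCs. Per the labels, cells spent 24 hours in full medium and were harvested 48 hours after a change to low-glucose, phenol red-free medium with 1% FBS and 10 nM estradiol, which all 3 groups therefore share. T47D cells of the contact cultures were recovered with EpCAM beads, a step the labels give for co-cultures only, so its effect and that of contact cannot be told apart. The comparisons address what direct contact with MSCs changes in these genes, what soluble products of MSCs change, and whether the cultures differ from each other.

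Cholesterol is built from acetyl-CoA through mevalonate, isoprenoid units, squalene and lanosterol, and fatty acids are built from malonyl-CoA and then elongated and desaturated. Many of these genes are transcribed under SREBP factors, which are held in the endoplasmic reticulum by INSIG proteins when sterols are plentiful and are cut and released to the nucleus when sterols fall. Proliferating breast cancer cells use both routes to supply membrane lipids.

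The authors deposited the natural log of TPM plus 1 per gene symbol. TPM is a transcript abundance corrected for gene length and scaled to one total per library, so levels of different genes can be set side by side. Libraries summed to 884208 to 909618 TPM and listed 18166 to 21178 symbols above 0. No read counts came with the values, so the counting error of a level is unknown beyond the 25000000 to 40000000 reads per sample named in the labels. Pearson's r across genes was 0.956 to 0.972 between contact culture libraries and 0.961 to 0.964 between conditioned medium libraries. Monoculture replicate 2 stands apart, with r of 0.942 and 0.939 to replicates 1 and 3 of its group, which had an r of 0.965 to each other. All 8 epithelial markers were expressed in every group, with sums of 2000 to 2661 TPM in MC, 1641 to 1965 in CC and 1660 to 1745 in CMed. Of these, 6 were lower in mean log2 value in CC than in MC and all 8 in CMed, and GATA3 was past the threshold in CC (-0.93, limma adjusted p = 0.00584). Mitochondrial and ribosomal RNA took 28.8% to 32.4% of a library in MC, 34.2% to 35.7% in CC and 30.4% to 33.9% in CMed. The part of these shifts in the results was not tested, except that the count of called members given below was also 5 with mitochondrial and ribosomal RNA left out. Of 18 stromal markers, 7 passed the filter, and VIM, FN1 and CAV1 were past the threshold used below for contact culture against monoculture, all 3 with higher levels after contact. Of the 7, 5 had a higher and 2 a lower mean log2 value in CC than in MC. The lower ones were S100A4 and COL1A1 (mean 4.12 TPM in MC and 3.37 in CC). The 18 together summed to 44.3 to 51.6 TPM in MC, 56.1 to 71.6 in CC and 32.3 to 39.5 in CMed. Most of the MC sum was S100A4, at 34.5, 30.2 and 35.0 TPM in MC, 33.0, 17.1 and 20.1 in CC and 15.9, 18.7 and 22.5 in CMed. POSTN was at most 0.0394 TPM and COL3A1 at most 0.212 TPM in any library. PDGFRB and PDGFRA were listed at 0 in all contact culture and conditioned medium libraries. Other markers under the filter were higher in some contact culture libraries. DCN was at 1.755, 0 and 1.147 TPM in CC, at most 0.479 in MC and at most 0.221 in CMed. FAP was at 0.0276, 0.788 and 0 TPM in CC and 0 in all other libraries. THY1 and COL5A1 were lower in mean in CC than in MC. In bulk RNA, a share of other cells and a change within T47D cells cannot be told apart.

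Relative to monoculture, 5 of the 32 genes were higher in contact culture at an adjusted p under 0.05, and no member was lower at that threshold. FDPS, which makes farnesyl diphosphate, was 5.28-fold higher. DHCR7, which catalyses the last step to cholesterol, and SCD, which puts the first double bond into saturated fatty acids, were 2.20-fold and 2.04-fold higher. The sterol sensor partner INSIG1 and the sterol cyclase LSS were 1.98-fold and 1.93-fold higher. Each fold is a ratio of mean TPM over n = 3 libraries per group, and the tests below are on log2(TPM + 1).

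These 5 are 15.6% of the members, where 2.15% of all 16696 tested genes were higher and 2.84% lower at the same threshold (limma, Benjamini-Hochberg adjusted p under 0.05 over all tested genes). The members were chosen with earlier results of these data known, and the tested genes were not matched to them in level. The shares here and below are therefore descriptions. Without adjustment, p was under 0.05 for 9 members higher and 2 lower, and for 7.94% and 12.3% of tested genes. All CC libraries lay above all MC libraries in 11 members, or 34.4%, against 9% of all tested genes. All lay below in 3 members, or 9.4%, against 15.3% of tested genes. The difference CC minus MC was positive in 24 members (in 27 under each of 3 other scalings), and its median was 0.31 on the log2 scale against -0.08 over all tested genes. The count of 5 members depended on single libraries. With monoculture replicate 1 left out it was 1, with replicate 2 left out 8 and with replicate 3 left out 2. With contact culture replicate 1, 2 or 3 left out it was 3, 3 and 1. It was 1 when only the 2 groups compared were fitted, and 1 (FDPS) when a log2 change of at least 2 was also asked for.

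**Figure D1:**
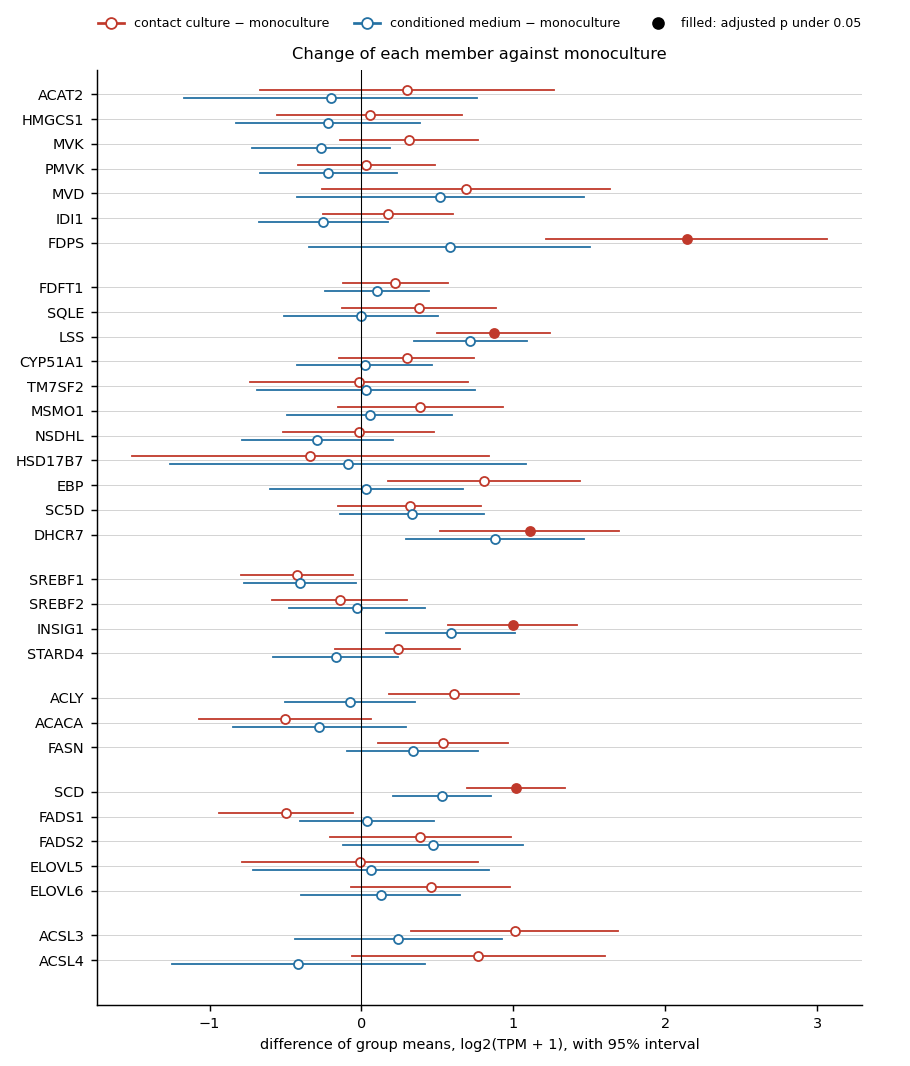
Difference of group means on the log2(TPM + 1) scale for each of the 32 genes, with its 95% confidence interval from limma, for contact culture minus monoculture (red) and conditioned medium minus monoculture (blue), 3 libraries per group. Filled points passed an adjusted p of 0.05. They are FDPS, LSS, DHCR7, INSIG1 and SCD, all in contact culture, with FDPS farthest to the right at 2.14.

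The stretches before the start sites of these 5 genes are shown because the genes were higher together, and that of SREBF2 because it alone among members held the searched sterol element. They come from RefSeq on GRCh38.p14, which gave a window of 250 bases before to 50 after the start for 28 of the 32 members (not for FDFT1, SQLE, ACAT2 and FASN). Each stretch is on the strand of its gene, 5′ to 3′, and was cut short where it met an annotated exon of that gene. All lie upstream of the gene except that of DHCR7, which precedes one of its start sites and is intronic in a longer annotated transcript. Another start site of DHCR7 has a stretch at chr11:71449044-71449293, which holds no CCAAT and is not shown. Capitals mark CCAAT or its reverse complement ATTGG, and in SREBF2 also the sterol element.
FDPS, chr1:155308616-155308747, plus strand: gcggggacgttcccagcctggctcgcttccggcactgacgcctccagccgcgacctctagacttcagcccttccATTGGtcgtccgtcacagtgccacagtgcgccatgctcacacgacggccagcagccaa
LSS, chr21:46228825-46229024, minus strand: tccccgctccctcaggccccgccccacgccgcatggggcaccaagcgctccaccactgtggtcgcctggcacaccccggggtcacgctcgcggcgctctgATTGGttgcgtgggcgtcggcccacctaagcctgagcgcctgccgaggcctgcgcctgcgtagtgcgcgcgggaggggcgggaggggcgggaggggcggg
DHCR7, chr11:71448436-71448643, minus strand: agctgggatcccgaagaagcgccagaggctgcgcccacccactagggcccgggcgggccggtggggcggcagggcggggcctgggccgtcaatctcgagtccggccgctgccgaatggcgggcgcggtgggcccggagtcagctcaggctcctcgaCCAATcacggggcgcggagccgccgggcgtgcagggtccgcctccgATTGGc
INSIG1, chr7:155297628-155297775, plus strand: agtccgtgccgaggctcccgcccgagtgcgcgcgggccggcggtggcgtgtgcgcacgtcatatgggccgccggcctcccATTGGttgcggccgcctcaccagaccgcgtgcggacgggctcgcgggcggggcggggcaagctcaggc
SCD, chr10:100346983-100347123, plus strand: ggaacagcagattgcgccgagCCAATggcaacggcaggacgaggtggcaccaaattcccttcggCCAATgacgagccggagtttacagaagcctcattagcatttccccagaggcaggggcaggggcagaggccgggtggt
SREBF2, chr22:41832855-41833078, plus strand: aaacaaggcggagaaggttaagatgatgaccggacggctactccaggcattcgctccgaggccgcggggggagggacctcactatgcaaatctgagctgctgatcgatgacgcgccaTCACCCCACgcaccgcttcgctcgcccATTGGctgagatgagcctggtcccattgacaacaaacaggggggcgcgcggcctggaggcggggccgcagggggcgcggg

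CCAAT, the box bound by NF-Y, stood on either strand in the windows of 22 of the 28 members, or 78.6%, against 42.2% of the 13928 genes of the table with a window. GGGCGG, the GC box bound by SP factors, stood in 26 members, or 92.9%, against 68.3% of genes. CACGTG, an E-box, stood in 4 members (LSS, SC5D, INSIG1 and ELOVL5), or 14.3%, against 11.5%. TCACNCCAC, a strict core of the sterol regulatory element bound by SREBPs, stood in SREBF2 only, or 3.57%, against 1.46%. Counting bases back from the start as negative positions, the CCAAT matches lie from -176 to -172 in FDPS, from -150 to -146 in LSS, from -170 to -166 in INSIG1 and from -94 to -90 in DHCR7. SCD holds them from -229 to -225 and from -186 to -182, and FDPS and DHCR7 also hold others nearer to the start. No match overlapped one of another motif. All 4 motifs were searched on both strands, and a match is a description of letters and not of binding. The genes with a window were taken without the filter on low values that all members passed, and were not matched to them in level. These shares are therefore descriptions too.

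Among the mevalonate genes the change in contact culture lay in FDPS. FDPS (ENSG00000160752.14, chromosome 1 of GRCh38, 155308748 to 155320666) was at 18.3, 14.9 and 15.0 TPM in the MC libraries, 143, 38.5 and 73.3 in CC and 19.8, 34.1 and 21.5 in CMed, in the order of replicates 1 to 3. Every contact culture library was above all others, and the contact libraries themselves were spread over a wide range, with a mean of 84.9 ± 53.2 TPM (SD, n = 3) against 16.1 ± 1.93 (SD, n = 3) in monoculture. The log2 difference was 2.14 (SE 0.41, limma adjusted p = 0.0204). The call was lost on leaving out monoculture replicate 1, monoculture replicate 3 or contact culture replicate 3 (adjusted p = 0.0578, 0.0676 and 0.0847), and when only the 2 groups were fitted (0.061). FDPS shares sequence with 8 annotated pseudogenes and overlaps the antisense gene RUSC1-AS1. The use of strand in counting is not given in the sources used here, so the split of reads among them is uncertain.

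HMGCS1, which joins acetyl-CoA units to HMG-CoA, did not separate the groups. It was at 17.4, 10.6 and 24.7 TPM in MC, 19.5, 15.4 and 17.2 in CC and 12.6, 15.7 and 14.2 in CMed. The CC minus MC difference was 0.05 on the log2 scale (95% interval -0.55 to 0.66, adjusted p = 0.94 from limma). The other mevalonate genes were the thiolase ACAT2, the kinases MVK and PMVK, the decarboxylase MVD and the isomerase IDI1. Their differences CC minus MC ran from 0.03 (PMVK) to 0.69 (MVD), and their libraries overlapped between CC and MC. In these genes MC ran from 0.623 TPM (ACAT2) to 149 (IDI1), and MVD was at 21.4 TPM in monoculture replicate 2 against 6.03 and 7.32 in the others. MVD passed the threshold only without that library.

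In the squalene and sterol steps, LSS and DHCR7 rose with contact culture. LSS (ENSG00000160285.14, chromosome 21, 46188141 to 46228824), which closes the rings of lanosterol, was at 7.65, 8.40 and 8.69 TPM in MC, 14.8, 18.0 and 15.0 in CC and 14.0, 12.7 and 16.0 in CMed. Monoculture was below all 6 libraries that had met HS5 cells or their medium, and the latter overlapped each other. The log2 difference CC minus MC was 0.87 (SE 0.16, limma adjusted p = 0.0191). The call was lost on leaving out monoculture replicate 1 or 3 or contact culture replicate 2 or 3 (adjusted p = 0.0543 to 0.0826), and with only the 2 groups (0.0669). LSS has 2 rows in the table, which were summed, and it overlaps the antisense genes AP001468.1 and AP001469.1.

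DHCR7 (ENSG00000172893.15, chromosome 11, 71428193 to 71452868) was at 12.1, 20.2 and 11.4 TPM in MC, 39.7, 25.6 and 30.6 in CC and 29.4, 21.3 and 30.3 in CMed. Monoculture was again the lowest group, with replicate 2 just under the lowest conditioned medium library. The log2 difference CC minus MC was 1.11 (SE 0.26, limma adjusted p = 0.0443). This was the weakest of the 5 calls. With 1 library left out at a time, 1 of 6 fits kept it (that without monoculture replicate 2), and its adjusted p was 0.0578 to 0.139 in the others. It reached 0.104 with only the 2 groups and 0.0840 with no filter on low values.

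The other sterol genes were less changed. SQLE, the epoxidase that is a second control point of the route, was at 40.5, 21.3 and 33.6 TPM in MC, 41.9, 36.9 and 42.0 in CC and 30.9, 27.8 and 33.7 in CMed. Contact culture was above conditioned medium in all libraries, but overlapped monoculture, and the CC minus MC difference was 0.38 (95% interval -0.13 to 0.88, adjusted p = 0.394 from limma). EBP, the sterol isomerase, was at 6.89 to 7.73 TPM in MC, 8.36 to 21.4 in CC and 7.23 to 7.91 in CMed. Its contact culture libraries were above all others, with a log2 difference of 0.81 (adjusted p = 0.143), and it passed the threshold only without contact culture replicate 2. The squalene synthase FDFT1 was at 162 to 178 TPM in MC and 189 to 219 in CC, above monoculture in all contact culture libraries, by 0.22 on the log2 scale (adjusted p = 0.469). CYP51A1, TM7SF2, MSMO1, NSDHL, HSD17B7 and SC5D, which remove methyl groups from lanosterol and rearrange its double bonds, overlapped between CC and MC, with differences from -0.34 (HSD17B7) to 0.39 (MSMO1).

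**Figure D2:**
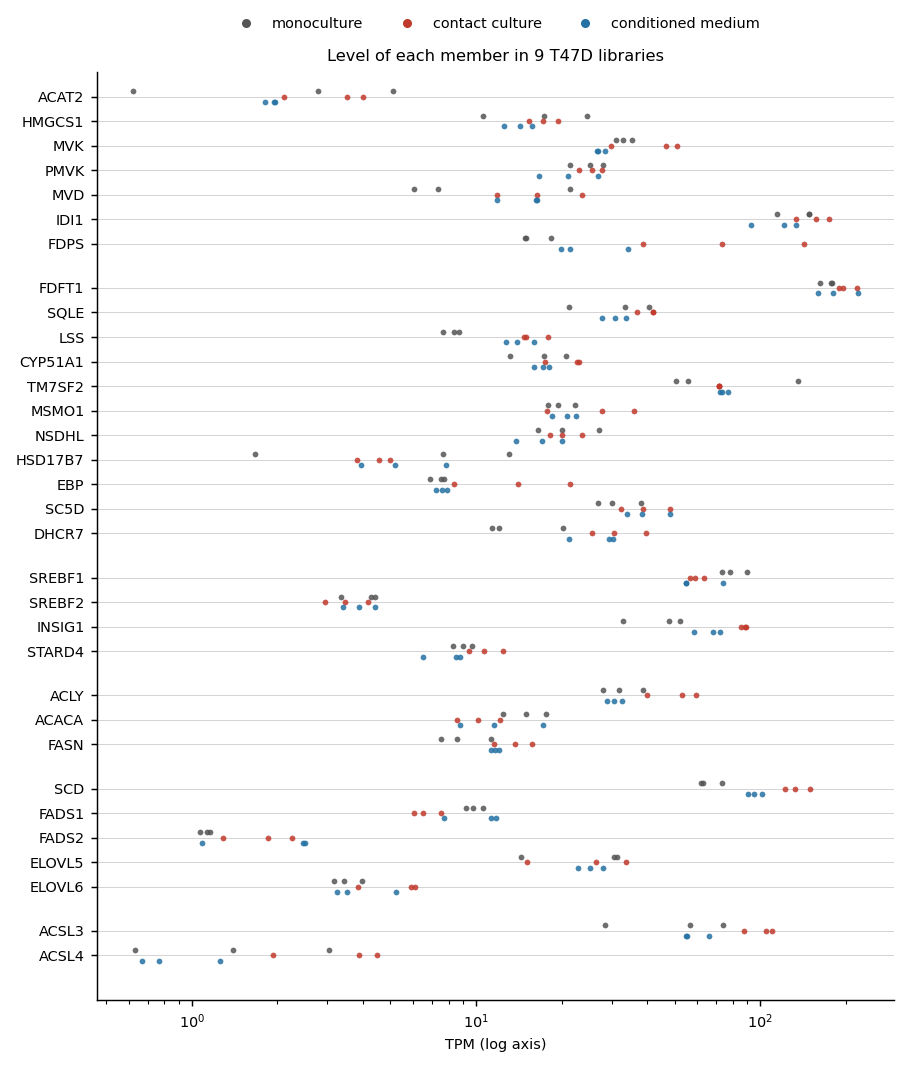
Level of each of the 32 genes in TPM, on a log axis, in the 9 libraries (grey, monoculture; red, contact culture; blue, conditioned medium). FDPS shows contact culture from 38.5 to 143 TPM, above all other libraries, and LSS shows monoculture from 7.65 to 8.69 TPM, below all others.

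Among the regulators, INSIG1 was higher in contact culture and the SREBP genes were not. INSIG1 (ENSG00000186480.12, chromosome 7, 155297776 to 155310235), which retains the SREBP escort SCAP in the endoplasmic reticulum and is itself a well known SREBP target, was at 47.9, 32.9 and 52.4 TPM in MC, 85.2, 88.7 and 89.3 in CC and 72.2, 68.0 and 58.3 in CMed. The groups did not overlap, in the order contact culture, conditioned medium, monoculture, and the contact libraries lay close together. The log2 difference CC minus MC was 0.99 (SE 0.19, limma adjusted p = 0.0196). The call was lost on leaving out monoculture replicate 1 or any one of the contact culture replicates (adjusted p = 0.0517 to 0.0945), and with only the 2 groups (0.0669).

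SREBF1 encodes SREBP-1, the form that drives mainly fatty acid genes. It was at 73.6, 89.9 and 78.5 TPM in MC, 59.0, 63.6 and 56.6 in CC and 54.8, 55.0 and 73.7 in CMed. Contact culture was below monoculture in all libraries, but the log2 difference of -0.42 was not past the threshold (95% interval -0.79 to -0.05, limma adjusted p = 0.185). SREBF2 encodes SREBP-2, the form that drives mainly sterol genes. It was at 4.40, 3.34 and 4.25 TPM in MC, 2.95, 4.18 and 3.46 in CC and 3.41, 3.87 and 4.41 in CMed, with all groups overlapping (CC minus MC -0.14, 95% interval -0.59 to 0.30, adjusted p = 0.746). Its level was about as low as those of ELOVL6 and ACAT2, and well below that of SREBF1. STARD4, a carrier of cholesterol through the cytosol, was at 8.32 to 9.66 TPM in MC, 9.46 to 12.5 in CC and 6.49 to 8.79 in CMed. Its CC minus MC difference was 0.24 (adjusted p = 0.522).

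In the fatty acid genes SCD was the one past the threshold. SCD (ENSG00000099194.5, chromosome 10, 100347124 to 100364834) was at 63.1, 73.1 and 61.8 TPM in MC, 149, 123 and 132 in CC and 95.1, 90.2 and 101 in CMed. The 3 groups did not overlap, and conditioned medium lay between the others. The log2 difference CC minus MC was 1.02 (SE 0.14, limma adjusted p = 0.00504). The call for SCD was kept on leaving out any 1 of the 6 libraries, with an adjusted p of at most 0.0360, and under the 10 other settings that kept an adjusted p alone as the criterion. Its log2 difference does not reach the fold criterion of 2. SCD shares sequence with the pseudogene SCDP1.

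The synthesis enzymes did not all go one way. ACLY, which supplies cytosolic acetyl-CoA, was at 27.9 to 38.6 TPM in MC, 39.9 to 59.3 in CC and 28.96 to 32.7 in CMed (CC minus MC 0.61, limma adjusted p = 0.11). FASN, the fatty acid synthase, was at 7.56, 11.3 and 8.56 TPM in MC, 15.7, 11.5 and 13.7 in CC and 11.2, 12.1 and 11.7 in CMed (CC minus MC 0.54, adjusted p = 0.152). In both genes every contact culture library was above every monoculture library, and both passed the threshold only without monoculture replicate 2. ACACA, the carboxylase that makes malonyl-CoA, lay the other way, at 12.4 to 17.6 TPM in MC and 8.58 to 12.2 in CC (-0.50, adjusted p = 0.308). FADS1, the delta-5 desaturase, was also below monoculture in all contact culture libraries, at 9.19 to 10.6 TPM in MC, 6.04 to 7.52 in CC and 7.69 to 11.7 in CMed (-0.50, adjusted p = 0.192). FADS2, the delta-6 desaturase, was near 1 TPM in MC (1.07 to 1.16) and at 1.29 to 2.25 in CC (0.39, adjusted p = 0.464). FADS1 and FADS2 overlap on opposite strands, so without a stated use of strand their reads may be shared. The elongases overlapped between CC and MC. ELOVL5 was at 14.4 to 31.4 TPM in MC and 15.1 to 33.7 in CC (-0.01, adjusted p = 0.99), and ELOVL6 at 3.16 to 3.97 and 3.84 to 6.07 (0.46, adjusted p = 0.316).

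ACSL3 and ACSL4 activate long-chain and polyunsaturated fatty acids to their CoA esters. ACSL3 was at 56.8, 28.4 and 73.6 TPM in MC, 87.4, 104 and 110 in CC and 55.4, 66.0 and 54.7 in CMed. Contact culture was above all other libraries, and the log2 difference CC minus MC was 1.01 (95% interval 0.33 to 1.69, limma adjusted p = 0.0968). ACSL4 was at 1.40, 0.633 and 3.05 TPM in MC, 3.87, 4.50 and 1.93 in CC and 1.26, 0.768 and 0.667 in CMed. Its contact culture libraries were above conditioned medium but overlapped monoculture (0.77, 95% interval -0.06 to 1.60, adjusted p = 0.286). At such levels the pseudocount makes the log2 difference smaller than that of TPM itself.

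**Figure D3:**
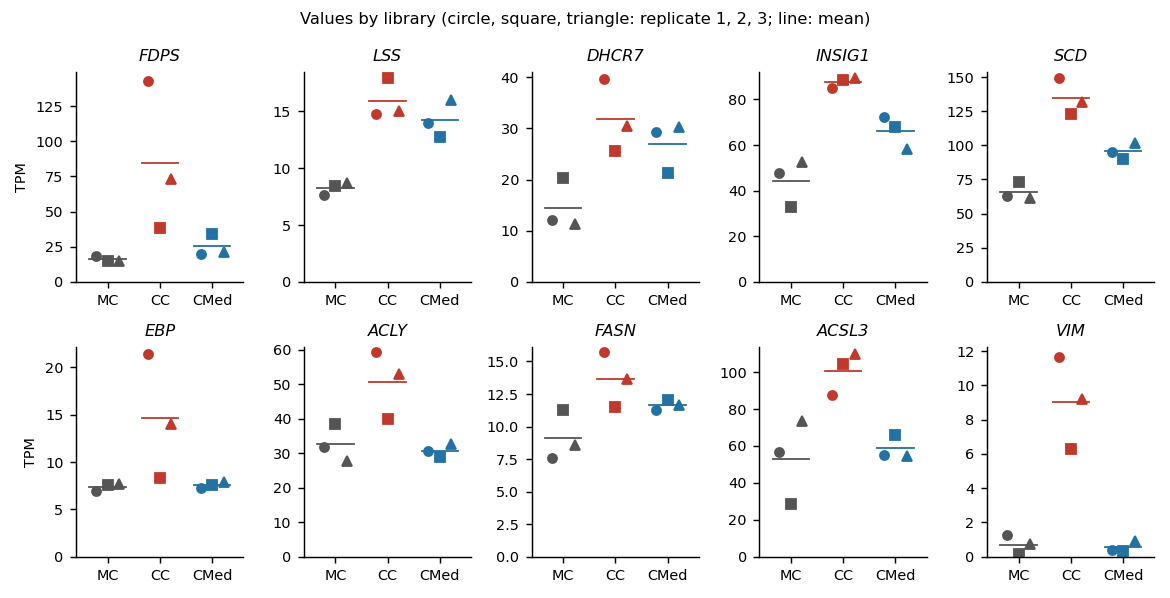
TPM by library on linear axes from 0 for the 5 genes past the threshold (FDPS, LSS, DHCR7, INSIG1 and SCD), 4 further members (EBP, ACLY, FASN and ACSL3) and the stromal marker VIM. Circles, squares and triangles are replicates 1, 2 and 3, and lines are group means. SCD and INSIG1 step from MC to CMed to CC. In FDPS, EBP, ACLY, ACSL3 and VIM all CC libraries also lie above all others. EBP does so narrowly in CC replicate 2, at 8.36 TPM against at most 7.91 outside CC.

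No member passed the threshold in conditioned medium against monoculture (limma), where 0.707% of all tested genes were higher and 0.677% lower. Without adjustment, p was under 0.05 for 4 members higher (LSS, DHCR7, INSIG1 and SCD) and 1 lower (SREBF1), and for 5.27% and 10.4% of tested genes. The CMed minus MC differences were 0.88 for DHCR7 (adjusted p = 0.151), 0.72 for LSS (0.079), 0.59 for INSIG1 (0.182) and 0.53 for SCD (0.12). In each of these 4 genes all conditioned medium libraries lay above all monoculture libraries, as they did for FDPS (0.58, 95% interval -0.34 to 1.51, adjusted p = 0.536). These 5 are 15.6% of the members, against 6.67% of tested genes. Only MVK lay below without overlap, which is 3.1% of the members, against 14.2% of tested genes. The median difference was 0.03, against -0.10 over all tested genes. With relative log expression scaling these became 0.16 and 0.01, and LSS passed the threshold. Without monoculture replicate 2 the median of the members turned to -0.06, and DHCR7, LSS and SCD passed the threshold. Both comparisons with monoculture share its 3 libraries, so the CC and CMed differences of these genes are not independent of each other.

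Contact culture against conditioned medium, the comparison of direct contact with soluble products of the same MSCs, also had no member past the threshold (limma). Of all tested genes 0.21% were higher in contact culture and 0.162% lower. Without adjustment, p was under 0.05 for 7 members higher (MVK, FDPS, EBP, ACLY, SCD, ACSL3 and ACSL4) and 1 lower (FADS1), and for 7.24% and 5.01% of tested genes. The log2 difference CC minus CMed was 1.56 for FDPS (95% interval 0.64 to 2.49, adjusted p = 0.168), 1.19 for ACSL4 (0.235), 0.69 for ACLY (0.181) and 0.49 for SCD (0.206). For LSS it was 0.15 (95% interval -0.22 to 0.52) and for DHCR7 0.23 (-0.36 to 0.81). Contact culture lay above conditioned medium without overlap in 11 members, or 34.4%, against 12.4% of tested genes, and below in 2 members, or 6.2%, against 9.93%. The median difference was 0.27, against 0.0006 over all tested genes. FDPS thus passed the threshold against monoculture after contact and not in conditioned medium, but the difference between these 2 cultures was itself not past it.

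Ordered by mean TPM, contact culture was the highest group in 21 of the 32 members, where this held for 29.6% of all tested genes. Monoculture was the lowest in 15 members (26.8% of tested genes). The order contact culture, conditioned medium, monoculture held in 13 members, FDPS, LSS, DHCR7, INSIG1 and SCD among them, and in 14.8% of tested genes. Summed over the 32 genes, the level was 1011 ± 8.75 TPM (SD, n = 3) in MC, 1348 ± 110 (SD, n = 3) in CC and 1052 ± 74.4 (SD, n = 3) in CMed. Without FDPS these sums were 994 ± 10.2, 1263 ± 57.5 and 1027 ± 79.7 TPM. The CC libraries lay above all others in both sums, which are given without a test.

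Members differed in level by over 2 orders of magnitude. In monoculture the highest means were those of FDFT1 (172 TPM) and IDI1 (137), and the lowest were those of FADS2 (1.12) and ACSL4 (1.69). Within a group the median coefficient of variation of the members was 16.9% in MC, 15.2% in CC and 14.4% in CMed, against 34.3%, 26.6% and 24.8% over tested genes. The tested genes were not matched to the members in level, so these values do not compare spread at equal level. The most variable member in CC was FDPS (62.6%) and the least was TM7SF2 (0.0643%). Monoculture replicate 2 was the highest of its group in 12 members and the lowest in 16, against 39.5% and 40.4% of tested genes. It held TM7SF2 at 135 TPM against 55.7 and 50.4 in the other replicates, and HSD17B7 at 1.67 TPM against 7.62 and 13.1.

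The contact culture libraries also differed among themselves in a shared order. In 14 members replicate 1 was above replicate 3 and replicate 3 above replicate 2, an order found in 23.6% of tested genes. These were HMGCS1, PMVK, MVD, IDI1, FDPS, MSMO1, EBP, SC5D, DHCR7, ACLY, FASN, SCD, FADS1 and ELOVL5. VIM, a mesenchymal filament protein that was at most 1.25 TPM in the libraries without HS5 cells, had the same order in contact culture (11.7, 6.28 and 9.20 TPM in replicates 1 to 3). CAV1 (2.98, 2.63 and 1.89) and FN1 (16.0, 22.0 and 19.5) did not have it. Of the other stromal markers, S100A4 (33.0, 17.1 and 20.1) had it, as did DCN, TAGLN and COL3A1, which were under the filter. The rest, COL1A1 and LUM among them, did not. The part of HS5 RNA in the levels of the members was not tested. Replicate 1, where VIM was highest, was the highest contact culture library in 17 members and the lowest in 10, against 37.4% and 37.2% of tested genes.

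Other genes of lipid metabolism were read from 7 lists for comparison. In contact culture against monoculture 0 of 13 tested genes of sterol synthesis, SREBP processing and sterol uptake outside the members passed the threshold (limma), with 1 higher and 1 lower at an unadjusted p under 0.05 and a median difference of -0.15. None of 7 LXR and sterol efflux genes passed in contact culture (2 higher at an unadjusted p under 0.05), and APOE, a carrier of cholesterol from cells, was higher in conditioned medium. APOE was at 6.19, 9.24 and 6.66 TPM in MC, 19.7, 9.64 and 13.3 in CC and 20.1, 18.7 and 20.7 in CMed. Conditioned medium exceeded monoculture by 1.33 on the log2 scale (SE 0.25, limma adjusted p = 0.0409), and the CC minus MC difference was 0.83 (adjusted p = 0.103). Of 14 other fatty acid synthesis and elongation genes 1 was lower in both cultures and none was higher, and 3 were higher and 2 lower at an unadjusted p under 0.05 in contact culture. This was ELOVL2, an elongase of polyunsaturated fatty acids, at 4.75, 3.65 and 4.70 TPM in MC, 0.417, 0.642 and 0.578 in CC and 1.10, 1.21 and 1.88 in CMed. It fell by 1.79 on the log2 scale in contact culture (limma adjusted p = 0.00258) and by 1.17 in conditioned medium (0.0391). None of 12 triglyceride and phospholipid genes, 5 other acyl-CoA synthetases, 5 uptake genes or 13 oxidation genes passed in either culture (limma). At an unadjusted p under 0.05 contact culture had 1 higher gene in each of these 4 lists, 1 lower uptake gene and 5 lower oxidation genes. No gene of the 7 lists passed between contact culture and conditioned medium, with 0 to 2 genes of a list in each direction at an unadjusted p under 0.05.

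**Figure D4:**
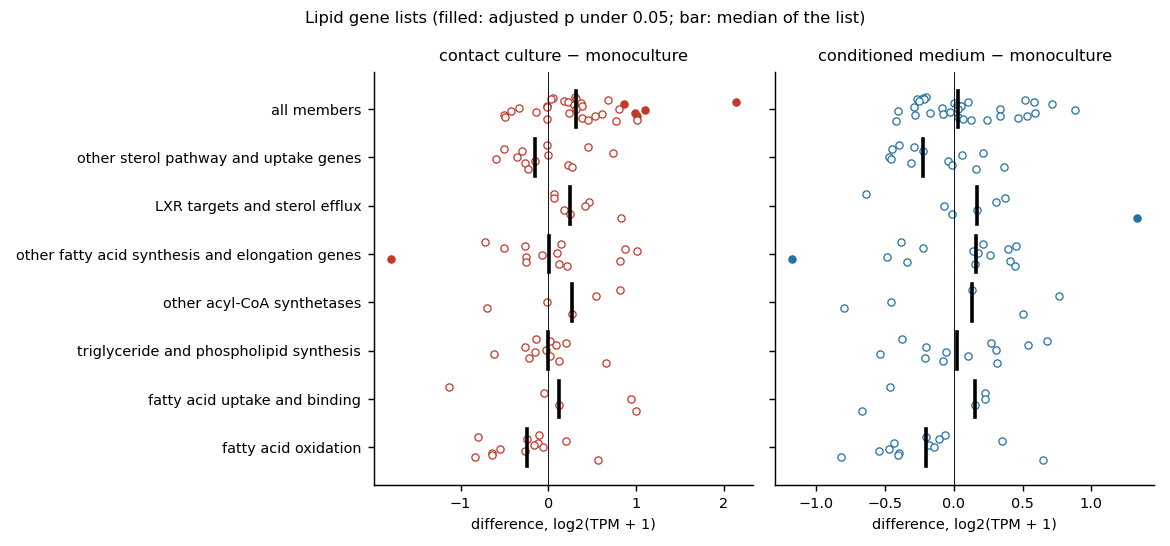
Differences on the log2(TPM + 1) scale for the 32 members and for the tested genes of 7 other lipid lists, contact culture minus monoculture at left and conditioned medium minus monoculture at right. Each circle is a gene, filled where the adjusted p was under 0.05, and the bar is the median of the list. The median of the members is 0.31 at left and 0.03 at right, that of fatty acid oxidation -0.24 at left, and ELOVL2 is the filled point at -1.79.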

How the data were processed

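Bulk RNA of 9 T47D libraries was read as stranded total RNA libraries with paired ends of 100 bp. Trimming and alignment tools in the submitters' processing notes are Trim Galore 0.5.0 and STAR 2.6.0. For the gene values, the genome build, annotation and program were not given in the sources used here. The values the authors deposited are on a natural log scale and were read as ln(TPM + 1), since library sums then fall short of the fixed TPM total by a small part (the sums would be 120543 to 127236 under log2). Of 28624 rows, 160 named by RNA families (0.0295% to 0.077% of a library) were left out and rows of 481 repeated symbols were summed. Genes that reached a TPM of 0.5 in 3 or more libraries were tested as log2(TPM + 1) with limma 3.58.1 in R 4.3.3, with 1 coefficient per condition over all 9 libraries, an intensity trend and robust empirical Bayes. P values are 2-sided and adjusted by Benjamini and Hochberg. The fit was also run on simulated normal noise with planted changes. The outcome is not reported here, and such a run does not bear on the calls of members. Coordinates are those of GENCODE 29 on GRCh38, matched by symbol, and of RefSeq for promoters, and do not come from the authors. Python 3.11.15, numpy 2.4.6, pandas 2.3.3 and matplotlib 3.10.9 were used for the rest.

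Members and lists were chosen with earlier results of these data known. All 32 members are named, with values in every library for those past the threshold and for HMGCS1, SQLE, SREBF1, SREBF2, FASN, ACSL3 and ACSL4, and with a range of levels or of differences for the others. LPIN2 of the other lists was not analysed here, and some genes of these lists are not reported here by name. The labels do not say whether replicates were separate cultures, so p values measure only the spread between these libraries. Alternatives tried were pseudocounts of 0.1 and 5, scaling by relative log expression, by upper quartile and without mitochondrial and ribosomal RNA, a filter at a TPM of 1 and none, a block for the replicate number, only the 2 groups compared, the largest row of a repeated symbol, a fold criterion, and each library left out in turn.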

Additional observations from a re-analysis of the deposited data

How the results depend on the processing

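The 5 members higher in contact culture than in monoculture stayed 5 under both pseudocounts, the 3 other scalings, the filter at a TPM of 1 and the largest row of a repeated symbol, and became 4 with no filter, 3 with the replicate block, 1 with only the 2 groups compared and 1 with the fold criterion. Leaving out each library gave 1 to 8. In conditioned medium the count of 0 became 1 (LSS) under relative log expression scaling and 0 to 3 when a library was left out, and between contact culture and conditioned medium it was 0 throughout. The cause of these changes was not tested, and some of the fits also held fewer samples. None of the 5 called members changed direction in any setting. Among members that were not called, 3 changed sign under each other scaling in contact culture against monoculture. Over all tested genes the split of calls in contact culture against monoculture, 359 higher and 474 lower, became 435 and 303 under relative log expression scaling, 428 and 341 when scaled to the upper quartile, and 411 and 326 once mitochondrial and ribosomal RNA were left out. In conditioned medium against monoculture it was 118 and 113, and 144 and 54, 123 and 61, and 120 and 70 in the same order. Scaling by relative log expression moved the median of all genes in conditioned medium against monoculture from -0.10 to 0.01. With the replicate block, contact culture against monoculture called 241 higher and 268 lower genes, and LSS (adjusted p = 0.0513) and DHCR7 (0.0957) were lost among members. Deviations from group means of libraries with the same number correlated at -0.042 to 0.109, and those with unlike numbers at -0.119 to 0.138. These values show no pairing by number, but they cannot exclude one. With no read counts and 3 libraries per group, levels near 1 TPM (ACSL4, FADS2, ACAT2) carry the least information.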

Other observations

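Some genes around the members had values near the threshold, and they were chosen after their values were seen. MBTPS1, the protease that makes the first cut in SREBPs, was at 30.2, 23.9 and 30.3 TPM in MC and 18.0, 18.2 and 18.3 in CC (-0.60, limma adjusted p = 0.0597). MID1IP1, a partner of acetyl-CoA carboxylase, was at 5.44, 8.75 and 6.22 TPM in MC and 16.6, 10.2 and 13.5 in CC (0.88, adjusted p = 0.0564).

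Of 13 tested genes of fatty acid oxidation, 11 were lower in mean in contact culture than in monoculture (56.7% of all tested genes were) and 5 of these had an unadjusted p under 0.05 (12.3% of all tested genes). They had a list median of -0.24 on the log2 scale against -0.08 over all tested genes, and none was past the adjusted threshold (limma). ACAA2, the last enzyme of the mitochondrial spiral, was at 16.8, 14.6 and 16.3 TPM in MC, 6.63, 10.1 and 8.92 in CC and 9.65, 6.70 and 9.71 in CMed. Both cultures lay below monoculture in all libraries, with log2 differences of -0.84 (limma adjusted p = 0.0519) and -0.82 (0.103). The summed level of the 16 listed genes was 695 ± 10.0 TPM (SD, n = 3) in MC, 538 ± 46.3 (SD, n = 3) in CC and 548 ± 40.5 (SD, n = 3) in CMed. Most of this difference lay in ETFA, a subunit of the electron transfer flavoprotein, at 406, 359 and 425 TPM in MC, 323, 231 and 265 in CC and 291, 248.8 and 321 in CMed (CC minus MC -0.55, limma adjusted p = 0.0978). Without ETFA the sums were 298 ± 26.3, 265 ± 4.30 and 261 ± 10.97 TPM (SD, n = 3), and those of both cultures still lay below monoculture in all libraries.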
